A study of Mus musculus with 4 samples.

Results

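The genes described here encode the machinery that finds, signals and repairs DNA damage. They were followed in mouse group 3 innate lymphoid cells (ILC3s), lymphocytes without antigen receptors that guard mucosal surfaces, with and without the cytokine TL1A, a TNF superfamily member that signals through the receptor DR3. The members are a list of 43 genes chosen by name for their roles in repair, with earlier results of these data known. All 43 are among the 24343 genes of the deposited count table. The cells carried the genotype IL23R-GFP/WT, with 1 reporter copy at the IL-23 receptor locus, and were sorted for absent lineage markers and for CD127 and GFP. All 4 libraries share that genotype and sort. Of these, 2 came from cells kept in medium and 2 from cells stimulated with TL1A, and a library counts as medium where its label does not call it stimulated. The sources used here give neither the dose and duration of TL1A nor the age of the mice. Whether a group's 2 libraries are from separate mice or cultures is not stated in the labels, so p-values measure only library-to-library spread, possibly technical.

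DNA is mended by several routes that act on different lesions. Mismatch repair corrects errors left by replication. Base excision repair removes single damaged bases and closes the resulting nicks. Nucleotide excision repair cuts out a short stretch around a bulky lesion. Double-strand breaks are either joined end to end, which needs no template and is open to resting cells, or copied from a sister chromatid by homologous recombination, which needs a cell in S or G2 phase. The kinases ATM and ATR signal damage to checkpoint kinases and to the transcription factor p53, whose targets stop the cell cycle or start cell death. Lymphocytes depend on the end-joining route in particular when they rearrange antigen receptor genes, a step that ILCs do not need for their function.

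Libraries held 11495636 to 12605164 assigned reads. Reads were counted per RefSeq transcript and summed per gene, and a level is given as CPM (counts scaled to library size with TMM factors). CPM is not corrected for transcript length, so it is compared between conditions and not between genes. The ILC3 markers Il7r, Il23r, Ahr, Id2 and Il1r1 were all counted, whereas Kit had a single read in all, in 1 medium library. With TL1A 4 of these 5 fell, Il7r by 1.59 (SE 0.06), Ahr by 1.61 (SE 0.14), Il1r1 by 2.14 (SE 0.32) and Il23r by 0.63 (SE 0.06) on the log2 scale, and Id2 rose by 0.49 (SE 0.07). Il7r, which encodes the sort marker CD127, went from 3552 and 3661 CPM in medium to 1209 and 1191 CPM with TL1A. Among markers of other cells, Ms4a1, Pax5, Cd8a, Itgam, Eomes and Col1a1 had 0 reads in all 4 libraries and Epcam had 1 read in all. A read that fits several transcript rows was not counted, so these counts, and that of Kit, do not show that a gene was silent. The summed level of the tested markers went from 495.8 and 508.4 CPM in medium to 210.1 and 204.8 CPM with TL1A for T cells (1 of 4 fell), and from 153.1 and 166.3 to 849.3 and 777.2 CPM for B cells (2 of 2 rose). For myeloid cells it went from 1643 and 1813 to 737.4 and 722.8 CPM (3 of 6 fell, 1 rose), for NK cells and ILC1s from 26 and 23.4 to 457.5 and 431 CPM (1 of 4 rose, 1 fell), for ILC2s from 216.7 and 223.8 to 292 and 270.6 CPM (2 of 5 fell, 1 rose), and for epithelial and stromal cells from 13.6 and 7.34 to 4.46 and 3.53 CPM (1 of 3 fell). In each of these sums most of the change came from 1 gene. A sum therefore does not show that the markers of a list moved together, or that the number of such cells changed. The part that other cells, or the move of the ILC3 markers, have in the changes of repair genes was not tested. In bulk RNA, fewer cells of a type and less RNA per cell cannot be told apart.

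TL1A moved the repair genes in both directions, more often down than up. Of the 43 members, 38 had enough reads to be tested; 12 were lower with TL1A, 4 were higher and 22 did not pass (edgeR quasi-likelihood test, Benjamini-Hochberg adjusted p under 0.05 over all 9852 tested genes). Those that fell were Ddb2, Chek2, Xpc, Xrcc6, Msh3, Atm, Ercc2, Xrcc5, Ercc4, Xrcc1, Pms2 and Parp2, and those that rose were Brca1, Apex1, Atr and Ddb1. Among all tested genes 42.3% were called, 21.7% as lower and 20.6% as higher; among the tested members the shares were 42.1%, 31.6% and 10.5%. The share of members called in either direction thus lay at the background. The shares of all tested genes are also the background for the counts of called genes in the smaller lists below. A fall of at least 2-fold was found for 7 members, against 10.6% of all tested genes, and a rise of that size for 2, against 8.77%. The median log2 fold change was -0.17 over the 38 tested members and -0.03 over all tested genes. The TL1A libraries lay below both medium libraries for 20 of the 38 and above both for 11, where 37.6% and 34.7% of all tested genes did so. With the library totals alone in place of TMM factors, the median of all genes moved from -0.03 to -0.29, and 19 members were lower and 3 higher; the share of higher calls among all called genes went from 48.6% to 27.4%. The median of the members minus that of all genes was -0.14 under both scalings. A change of scaling shifts all genes by nearly the same amount, so this difference could hardly move.

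**Figure D1:**
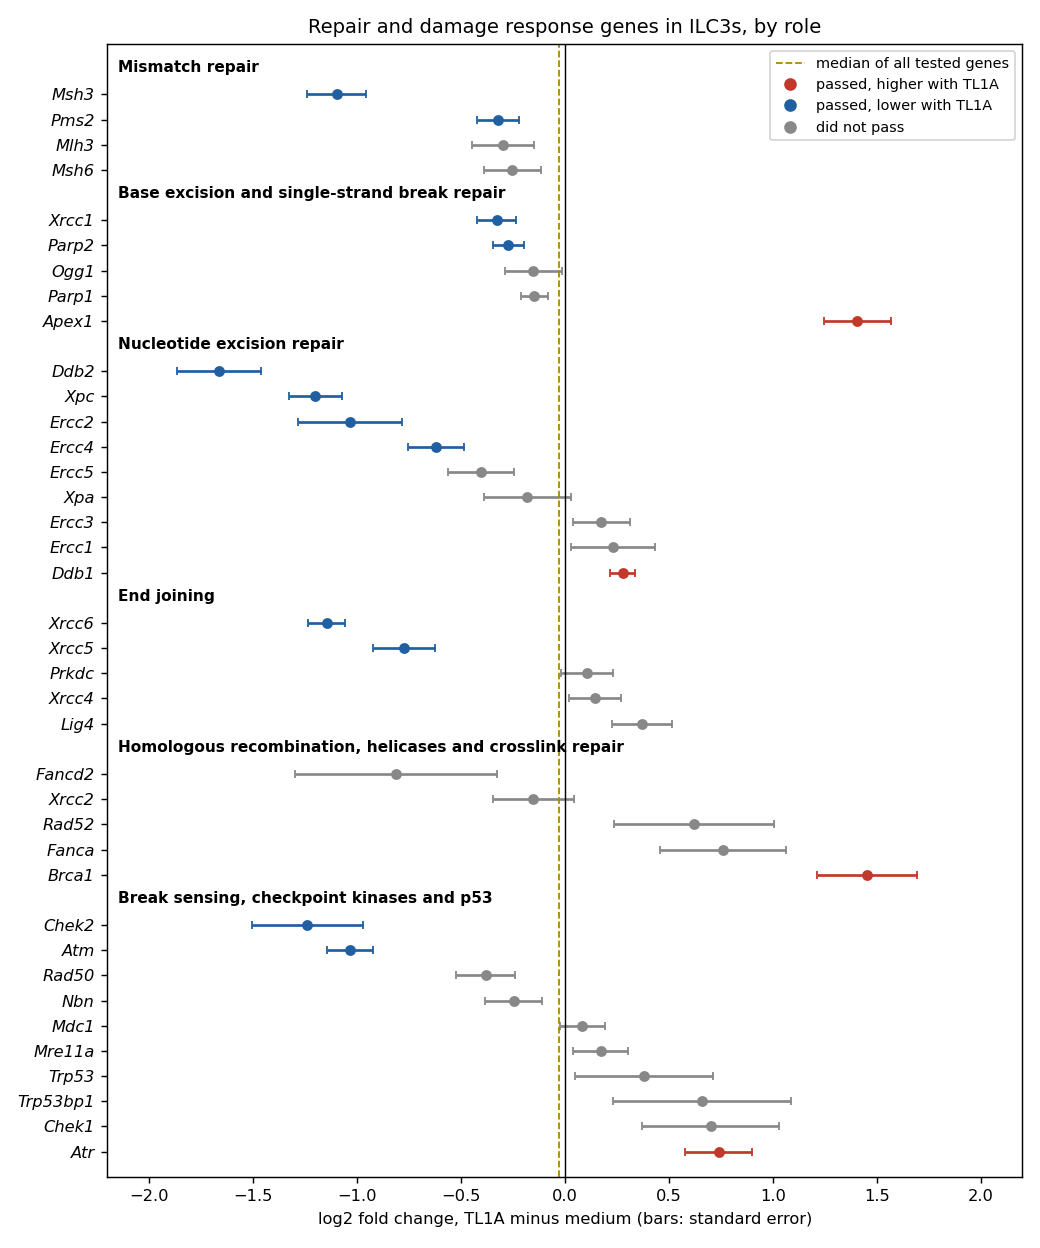
Log2 fold change (TL1A minus medium, horizontal axis) of the 38 tested repair and damage response genes, grouped by role, with standard errors as bars. Blue points are the 12 genes that passed as lower, red points the 4 that passed as higher, grey points the 22 that did not pass, and the dashed line is the median of all tested genes at -0.03.

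For 5 members the table held too few reads for a test. Ung, the uracil glycosylase gene of base excision repair, Lig3, the ligase gene of the same route, and Brca2, whose product loads the recombinase of homologous recombination, had 0 reads in every library. A count of 0 allows up to 0.261 CPM in the shallowest library (3 counts of the assigned reads, covering counting error only). The genes have 2, 4 and 2 deposited transcript rows, and a read that fits several rows was not counted, so this limit holds for reads unique to 1 row and not for the gene. Blm and Wrn, genes of 2 helicases of the RecQ family with 2 rows each, had 6 and 37 reads over all 4 libraries. The same counting touches Trp53, the p53 gene: 1 of its 2 rows had 0 reads in every library and the other had 39 and 34 reads in medium against 44 and 38 with TL1A. Trp53bp1, which encodes a protein that directs breaks to end joining, had 83 reads in all on 1 of 2 rows, and Rad52 had 107 on 1 of 4. By contrast, 34 of the 38 tested members have a single row.

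Among those 34, level per transcript length could be compared (CPM per kilobase of the RefSeq transcript, mean of the medium libraries). Ddb1 stood first at 267, followed by Xrcc6 at 118, Parp2 at 116, Parp1 at 106 and Xpc at 70.7. Brca1 at 0.693 and the crosslink repair genes Fanca at 0.814 and Fancd2 at 0.606 were the lowest. Xrcc2, the other member of their role with a single row, stood at 8.79. Fancd2 also had the widest standard error of the tested members, 0.49 on the log2 scale. With TL1A, Xrcc6 stood at 53.4 and Apex1, at 14.6 in medium, stood at 38.6 CPM per kilobase.

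Several members start close to a neighbour that is read from the opposite strand, so that the 2 genes share the stretch between their starts. The stretches of 2 genes that rose, Apex1 and Brca1, and of 2 that fell, Atm and Xrcc6, are shown because the log2 changes of Apex1, Atm and Xrcc6 are set beside those of their neighbours further on, and Brca1 had the largest rise of the tested members. They come from RefSeq on build GRCm38.p6 and end at the base before the start of the named member. The read counts were made on mm9, and positions in that build are not given. The stretch of Apex1 is chr14:50924894-50924948 on the plus strand, and holds all 55 bases up to the start of Osgep. That of Brca1 is chr11:101551956-101552106 on the minus strand, with the 151 bases up to a start of Nbr1. That of Atm is chr9:53536672-53536921 on the minus strand, the nearest 250 of the 375 bases up to Npat, and that of Xrcc6 is chr15:82016221-82016368 on the plus strand, with the 148 bases up to Desi1. Each lies outside the transcripts of both genes as RefSeq starts them. Capitals mark the letters CCAAT, the CCAAT box, on either strand (in Apex1, Brca1 and Atm) and TTTCCCGC, a form of the E2F site, here on the opposite strand (in Xrcc6).
Apex1: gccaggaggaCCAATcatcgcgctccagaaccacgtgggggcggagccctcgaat
Brca1: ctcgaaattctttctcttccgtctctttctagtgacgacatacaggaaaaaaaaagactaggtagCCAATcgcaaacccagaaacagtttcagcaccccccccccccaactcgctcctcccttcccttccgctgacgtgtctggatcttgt
Atm: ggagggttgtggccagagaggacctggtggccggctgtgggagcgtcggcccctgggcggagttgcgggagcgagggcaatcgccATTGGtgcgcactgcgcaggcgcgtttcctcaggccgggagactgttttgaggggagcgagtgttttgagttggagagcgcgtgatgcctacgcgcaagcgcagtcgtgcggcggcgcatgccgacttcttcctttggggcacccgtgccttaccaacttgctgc
Xrcc6: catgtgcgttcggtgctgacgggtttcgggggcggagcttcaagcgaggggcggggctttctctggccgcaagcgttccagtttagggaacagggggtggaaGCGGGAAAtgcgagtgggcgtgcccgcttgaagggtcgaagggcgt

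RefSeq promoter windows of 300 bases (250 before to 50 after a start) were found for 34 members, 36 windows in all; Ddb2, Xpc, Ercc3, Prkdc, Xrcc2, Wrn, Fancd2, Rad50 and Nbn had none in the table. CCAAT on either strand was in 21 of the 36 windows and in 37.4% of all 32851 windows. It was in 8 of 10 windows of members that fell and in 2 of 4 of those that rose. TTTCCCGC was in 5 of the 36, those of Brca2, Chek2, Mdc1, Msh6 and Xrcc6, and in 1.07% of all windows. The other E2F form searched, TTTGGCGC, was in that of Msh3 and in 0.514% of all windows. The NF-κB consensus was in the windows of Atr and Trp53 and in 8.46% of all. The letters TGACGTCA (cyclic AMP response element) were in 1 of the 36 and 1.79% of all, and CCGGAAGT (ETS factors) in 3 and 3.89%. These are matches of letters and show no binding.

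In mismatch repair, 2 of 4 members fell and 2 did not pass. Msh3, whose product helps to recognise insertion and deletion loops, had 36.2 and 35.4 CPM in medium and 16.9 and 16.5 CPM with TL1A. Both stimulated libraries were below both medium libraries, a 2.14-fold fall (log2 change -1.10, SE 0.14, adjusted p = 0.000709). Pms2, an endonuclease subunit gene, had 116 and 127 CPM in medium and 92.5 and 102 CPM with TL1A, a 1.25-fold fall (log2 change -0.32, SE 0.10, adjusted p = 0.0357). The Pms2 call was lost when medium replicate 2 (0.185) or either TL1A replicate (0.223 and 0.0638) was left out, with the replicate number as a block (0.0631), with RLE factors (0.0543) and with DESeq2 (0.063). Msh6, a gene for the recognition of single mismatches, and Mlh3, of the endonuclease step, had log2 changes of -0.25 (SE 0.14) and -0.30 (SE 0.15) with groups that did not overlap, and did not pass. Pms1, a further mismatch repair gene outside the list of members, fell by 0.55 on the log2 scale (SE 0.13, adjusted p = 0.0125), while the nuclease gene Exo1 did not pass.

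In base excision and single-strand break repair 1 of 5 tested members rose, 2 fell slightly and 2 did not pass. Apex1 encodes the endonuclease that cuts at sites that have lost their base, and it is also known as a redox regulator of transcription factors. It had 15.8 and 20.2 CPM in medium and 47.2 and 48.5 CPM with TL1A. Both stimulated libraries lay above both medium libraries, and the rise was 2.65-fold (log2 change 1.41, SE 0.16, adjusted p = 0.000398). Xrcc1, the scaffold gene of nick repair, had 129 and 125.1 CPM in medium and 96.5 and 105.7 CPM with TL1A (log2 change -0.33, SE 0.09, adjusted p = 0.025). Parp2, which encodes an enzyme that marks breaks with poly(ADP-ribose), had 215.9 and 221.8 CPM in medium and 183 and 179.2 CPM with TL1A (log2 change -0.27, SE 0.07, adjusted p = 0.0217).

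The small falls of Xrcc1 and Parp2 were larger than the spread between libraries but close to the threshold. The Xrcc1 call was lost without any single library (adjusted p 0.0553 to 0.185), and that of Parp2 when medium replicate 2 (0.0851) or either TL1A replicate (0.103 and 0.145) was left out. Both were lost with the replicate block (0.0648 and 0.0715). Parp1, the main poly(ADP-ribose) polymerase gene, had 412.5 and 412.2 CPM in medium and 376.2 and 368.8 CPM with TL1A. Its stimulated libraries were both lower, yet its log2 change of -0.15 did not pass (95% interval -0.30 to 0.01, adjusted p = 0.111). Ogg1, the glycosylase gene for oxidised guanine, had a log2 change of -0.15 (SE 0.14) and did not pass.

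Of 11 further genes of this route that could be tested, 5 fell, 1 rose and 5 did not pass, with a median log2 change of -0.47 beside -0.03 for all genes. The DNA glycosylase genes Neil2 and Nthl1, which act on oxidised bases, fell. Neil2 went from 49 and 31 reads to 3 and 2 reads (log2 change -3.73, SE 0.61, adjusted p = 0.00224), and Nthl1 from 47 and 56 reads to 17 and 23 (-1.15, SE 0.35, adjusted p = 0.0323). Neil1, another glycosylase gene, fell by 1.05 on the log2 scale (SE 0.14). With DESeq2 3 of the 5 falls remained, and those of Nthl1 (adjusted p = 0.173) and the glycosylase gene Mpg (0.132) were lost. Parp3, a relative of Parp1, rose by 1.57 (SE 0.09, adjusted p = 1.04e-05) from 963 and 1112 reads to 2486 and 2832, while Parp2 fell.

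Nucleotide excision repair held the largest fall among the members, in Ddb2, a gene of damage recognition. Of 9 members 4 fell, 1 rose and 4 did not pass. Ddb2 encodes the subunit that finds ultraviolet lesions in chromatin; it had 26.4 and 29.4 CPM in medium and 10.2 and 7.41 CPM with TL1A. Its stimulated libraries lay below both medium libraries, a 3.17-fold fall (log2 change -1.66, SE 0.20, adjusted p = 0.00054). Xpc, which encodes the sensor of helix distortion, had 266.8 and 246.8 CPM in medium and 97.2 and 126.3 CPM with TL1A, a 2.3-fold fall (log2 change -1.20, SE 0.13, adjusted p = 0.000273). Ddb1, whose product pairs with DDB2 and is the adaptor of CUL4 ubiquitin ligases in general, went the other way, with 1177 and 1202 CPM in medium and 1474 and 1409 CPM with TL1A (log2 change 0.28, SE 0.06, adjusted p = 0.00809). This small rise depended on the scaling: with library totals alone the Ddb1 log2 fold change was 0.02 (adjusted p = 0.798), and the call was also lost without TL1A replicate 1 (0.0744) and with the replicate block (0.0557).

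Downstream of recognition, the helicase and nuclease genes were divided. Ercc2, which encodes the XPD helicase of TFIIH, had 22.7 and 14.5 CPM in medium and 8.93 and 9.23 CPM with TL1A. The medium libraries differed from each other more than the stimulated ones did, and the log2 change of -1.03 (SE 0.25, adjusted p = 0.0131) became -0.69 without medium replicate 1 (adjusted p = 0.0583). Ercc4, the gene of the XPF nuclease, had 110.8 and 90.8 CPM in medium and 60.4 and 70.8 CPM with TL1A, a 1.54-fold fall (log2 change -0.62, SE 0.14, adjusted p = 0.00894). Ercc1, whose product is the partner of XPF, did not pass (log2 change 0.23, SE 0.20), and its 2 rows did not pass the test of unequal change (edgeR diffSpliceDGE, adjusted p = 0.746; 4.48% of the 268 genes tested this way were called). Ercc5, the XPG nuclease gene, had a log2 change of -0.40 that missed the threshold (SE 0.16, adjusted p = 0.0789), and it passed without medium replicate 2 (0.0294) and with upper quartile factors (0.0415). Without medium replicate 1 the log2 change of Ercc5 was -0.22 (adjusted p = 0.366). Ercc3, the other TFIIH helicase gene, and Xpa, the gene of a scaffold protein, had log2 changes of 0.18 (SE 0.14) and -0.18 (SE 0.21) and did not pass.

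In the wider nucleotide excision repair list, of 14 tested genes 3 rose, 2 fell and 9 did not pass, with a median log2 change of 0.03. Rad23b, which encodes a stabilising partner of XPC, rose by 0.56 (SE 0.14, adjusted p = 0.0149). Gtf2h5, a TFIIH subunit gene, rose by 0.38 (SE 0.11, adjusted p = 0.023). Cul4a, the ubiquitin ligase scaffold gene, fell by 0.42 (SE 0.13, adjusted p = 0.0312) and Uvssa, of the transcription-coupled branch, fell by 0.37 (SE 0.09, adjusted p = 0.0156). The fall of Cul4a was lost with DESeq2 (adjusted p = 0.0898).

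**Figure D2:**
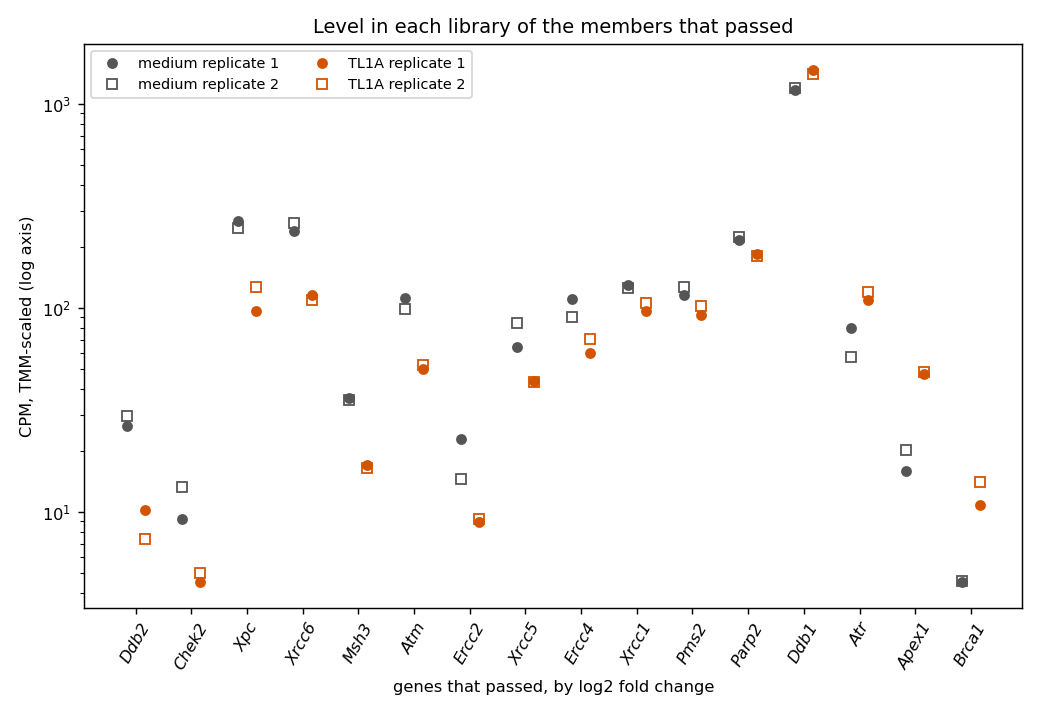
Level in each library (TMM-scaled CPM, log axis) of the 16 members that passed, ordered by log2 fold change from Ddb2 to Brca1; grey symbols are the 2 medium libraries and orange symbols the 2 TL1A libraries. The groups do not overlap for any of these 16 genes, and the distance between them is smallest for Pms2, Parp2, Xrcc1 and Ddb1. Among all tested genes, passing or not, groups did not overlap for 37.6% with TL1A below and 34.7% with TL1A above.

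In end joining, the Ku genes fell and the later factors did not pass. Xrcc6 and Xrcc5 encode Ku70 and Ku80, the ring that caps broken ends. Xrcc6 had 239 and 260.3 CPM in medium and 116.4 and 109.2 CPM with TL1A, a 2.21-fold fall (log2 change -1.15, SE 0.09, adjusted p = 4.87e-05), the smallest adjusted p among the members. Xrcc5 had 64.7 and 84 CPM in medium and 43.7 and 43.3 CPM with TL1A, a 1.71-fold fall (log2 change -0.77, SE 0.15, adjusted p = 0.00474). The RNA of both subunits of the ring was thus lower in both stimulated libraries, and protein was not measured.

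Prkdc, the gene of the DNA-dependent kinase that binds to Ku, had 90.4 and 73.3 CPM in medium and 88.5 and 87.5 CPM with TL1A. Its groups overlapped and its log2 fold change was 0.11 (95% interval -0.18 to 0.39, adjusted p = 0.532). Lig4 and Xrcc4, which encode the ligase and its scaffold, had log2 changes of 0.37 (SE 0.14, adjusted p = 0.0753) and 0.15 (SE 0.13, adjusted p = 0.39), with both stimulated libraries above both medium libraries. Of 4 further tested end-joining genes (Polm, Nhej1, Poll and Dclre1c), 0 passed with edgeR, DESeq2 or limma-voom, and 1 had an unadjusted p under 0.05; their log2 changes were -0.51 to -0.12.

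Of the 5 tested members of homologous recombination and crosslink repair, 1 passed. Brca1, whose product promotes resection and recombination at breaks, had 4.54 and 4.57 CPM in medium and 10.9 and 14.1 CPM with TL1A. This was a 2.74-fold rise (log2 change 1.45, SE 0.24, adjusted p = 0.00241) on 57 and 61 reads in medium against 117 and 163 with TL1A. Fanca had a log2 change of 0.76 (SE 0.30, adjusted p = 0.0822) and Fancd2 one of -0.81 (SE 0.49, adjusted p = 0.222), on 232 and 128 reads in all. Rad52 and Xrcc2, recombination genes, had log2 changes of 0.62 (SE 0.38) and -0.15 (SE 0.19) and did not pass. Of the 16 other tested genes of this route, 2 fell and 14 did not pass, with a median of 0.08. The nuclease gene Fan1 fell by 1.02 (SE 0.27, adjusted p = 0.0194) and Fancm fell by 0.55 (SE 0.18, adjusted p = 0.0482); the Fancm call was lost with DESeq2 (0.17) and limma-voom (0.0504). The binding partner gene of Brca1, Bard1, had 18 and 32 reads in medium against 41 and 17 with TL1A and did not pass.

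Among sensors and kinases, the genes of the 2 apical kinases moved in opposite directions. Atm, the kinase gene for double-strand breaks, had 111.7 and 99 CPM in medium and 50.5 and 52.3 CPM with TL1A, a 2.05-fold fall (log2 change -1.03, SE 0.11, adjusted p = 0.000273). Atr, the kinase gene for stalled replication forks, had 79.9 and 57.4 CPM in medium and 108.9 and 120.2 CPM with TL1A, a 1.67-fold rise (log2 change 0.74, SE 0.16, adjusted p = 0.00831). The medium libraries of Atr were further apart than those of Atm, and neither gene's groups overlapped. Of the genes of the kinases that they activate, that of ATM's target passed and that of ATR's target did not. Chek2, the target of ATM, had 9.24 and 13.3 CPM in medium and 4.56 and 5 CPM with TL1A, a 2.36-fold fall (log2 change -1.24, SE 0.27, adjusted p = 0.00823). Chek1, the target of ATR, had 3.26 and 5.99 CPM in medium and 7.16 and 7.93 CPM with TL1A. Its log2 change of 0.70 did not pass (SE 0.33, adjusted p = 0.128); it stood at 1.23 (adjusted p = 0.0253) once medium replicate 2 was left out, and at 0.33 (adjusted p = 0.459) once medium replicate 1 was. Atrip, the ATR partner gene, was at 0.26 (SE 0.10, adjusted p = 0.0691) and did not pass.

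The MRN complex, which binds broken ends and recruits ATM, consists of the products of Mre11a, Rad50 and Nbn. Rad50 had 307.8 and 229.4 CPM in medium and 190.8 and 221.6 CPM with TL1A. Its log2 change of -0.38 did not pass (SE 0.14, adjusted p = 0.0677). It passed under several alternatives, with upper quartile factors (0.0302), no low-count filter (0.0123), DESeq2 (0.0263), without medium replicate 2 (0.00436) and without TL1A replicate 2 (0.0424). Without medium replicate 1 the log2 change was nearer 0, at -0.16 (adjusted p = 0.3), and so it was without TL1A replicate 1, at -0.27 (adjusted p = 0.244). Nbn and Mre11a had log2 changes of -0.24 (SE 0.14) and 0.17 (SE 0.13) and did not pass. The mediator gene Mdc1, whose product spreads the break signal along chromatin, had 85.5 and 76.2 CPM in medium and 88.6 and 82.8 CPM with TL1A (log2 change 0.08, SE 0.11). Trp53bp1 was at 0.66 (SE 0.43) and did not pass. Of 13 further tested sensor and checkpoint genes, 2 fell, 1 rose and 10 did not pass. Wee1, the gene of a kinase that holds CDK1 inactive, fell by 1.30 (SE 0.19, adjusted p = 0.00147), Mad2l2, of the shieldin complex, fell by 0.42 (SE 0.09, adjusted p = 0.00649), and the replication fork gene Tipin rose by 0.35 (SE 0.09, adjusted p = 0.0189).

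Trp53 had 3.11 and 2.55 CPM in medium and 4.09 and 3.28 CPM with TL1A on the counted row, with a log2 change of 0.38 (SE 0.33, 95% interval -0.40 to 1.16, adjusted p = 0.396), and did not pass. Genes that p53 is known to activate gave no single direction. Of 19 tested p53 target genes 4 fell, 2 rose and 13 missed the threshold, at a median log2 fold change of -0.12. The shares were 21.1% lower and 10.5% higher, against 21.7% and 20.6% of all tested genes. Gadd45a, a growth arrest gene, had 914 and 1001 reads in medium against 88 and 99 with TL1A, a log2 change of -3.14 (SE 0.14, adjusted p = 3.24e-06). Sesn1, of the sestrin family, fell by 1.02 (SE 0.16, adjusted p = 0.00191), Bax, a cell death gene, fell by 0.52 (SE 0.08, adjusted p = 0.00155) and Ccng1, the cyclin G1 gene, fell by 0.31 (SE 0.07, adjusted p = 0.011). Tnfrsf10b, a death receptor gene, rose by 1.73 (SE 0.24, adjusted p = 0.000998), and Tigar, a metabolic regulator gene, rose by 0.66 (SE 0.17, adjusted p = 0.0161). Cdkn1a, the p21 gene, had 17 and 29 reads in medium against 28 and 37 with TL1A and did not pass (adjusted p = 0.207). Mdm2, the gene of the ubiquitin ligase for p53, had 15 and 13 reads in medium against 12 and 11 with TL1A.

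Damage reversal and translesion synthesis genes, which act outside the routes above, fell in 3 of 9 tested cases, and 6 did not pass (median -0.38). Mgmt, the gene of the methyltransferase that repairs alkylated guanine, fell by 1.30 (SE 0.34, adjusted p = 0.0192), a call lost with DESeq2 (0.0866). Polk, a translesion polymerase gene, fell by 1.23 (SE 0.10, adjusted p = 7.3e-05).

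**Figure D3:**
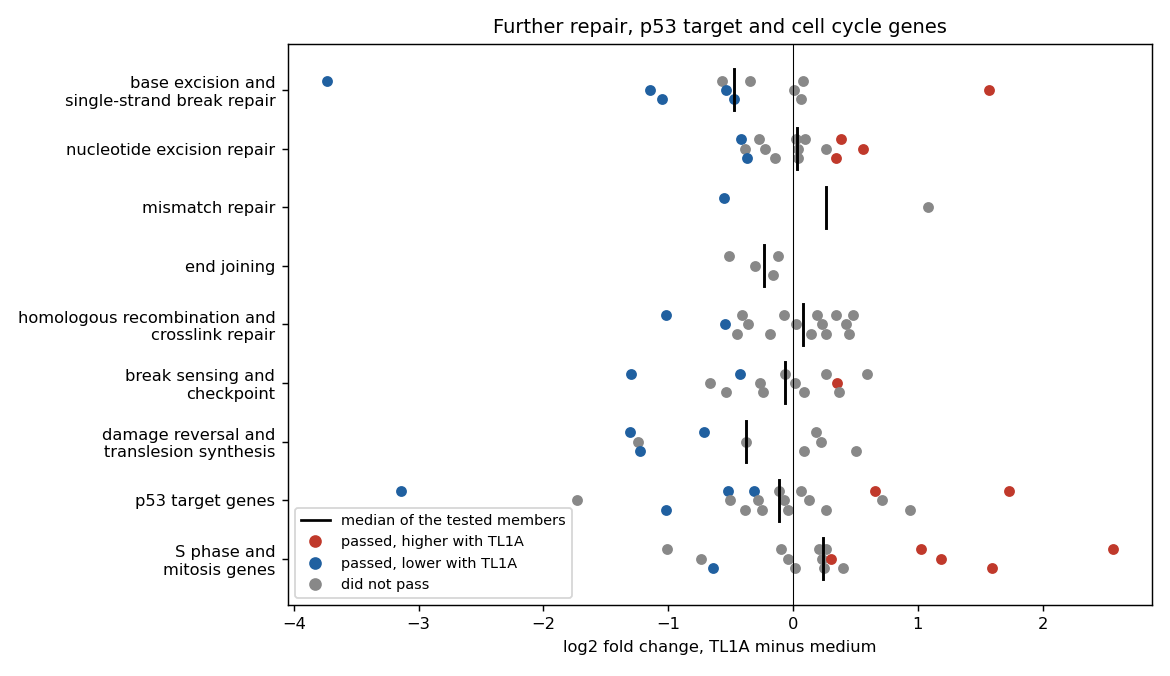
Log2 fold change (TL1A minus medium) of each tested gene in 7 further repair lists, the p53 targets and the S phase and mitosis genes; black bars are medians, and colours mark genes that passed as higher (red), as lower (blue) or not (grey). The S phase and mitosis list has its median at 0.24 and the base excision list at -0.47.

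Repair genes of recombination and replication are known to follow the cell cycle, so the level of cycle genes is given beside them. Of 16 tested S phase and mitosis genes 5 rose, 1 fell and 10 did not pass, with a median log2 change of 0.24. Rrm2, a nucleotide supply gene, went from 22 and 15 reads to 84 and 107 reads (log2 change 2.56, SE 0.33), and Mcm3, of the replicative helicase, rose by 1.59 (SE 0.11). Mcm7, another subunit of that helicase, fell by 0.64 (SE 0.12). The proliferation marker gene Mki67 had 44 and 36 reads in medium against 45 and 38 with TL1A, and Pcna, the sliding clamp gene, was at 0.21 (SE 0.14); neither passed. Ccne2, Cdc6, Bub1 and Mcm5 had 0 reads in every library, which leaves out reads that fit several rows and does not show that they were silent. The part of the cell cycle in the rise of Brca1 was not tested.

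The values of members and of their divergent neighbours are set side by side here. By the GENCODE M21 annotation, 17 members have a protein-coding neighbour on the opposite strand whose start lies within 1000 bases, and in 12 of these pairs both genes were tested. For 7 pairs the member had passed: the neighbour passed in the same direction in 2, in the opposite direction in 1 and did not pass in 4. Among all tested genes 42.3% passed, 21.7% as lower and 20.6% as higher. Atm at -1.03 stands beside Npat, a histone transcription gene, which fell by 0.42 (SE 0.13, adjusted p = 0.0342). Chek2 at -1.24 stands beside Hscb, an iron-sulphur cluster gene, which fell by 0.61 (SE 0.12, adjusted p = 0.00561). Xpc at -1.20 stands beside Lsm3, an RNA-processing gene, which rose by 0.30 (SE 0.09, adjusted p = 0.0357). Apex1 at 1.41 stands beside Osgep, a tRNA modification gene, at 0.34 (SE 0.22, adjusted p = 0.259), whose reads were 87 and 90 in medium and 90 and 103 with TL1A. Whether the 2 genes of a pair differed was not tested. Xrcc6 and Desi1, neighbours by their RefSeq starts, both fell, with Desi1 at -0.68 (SE 0.15, adjusted p = 0.00892). By GENCODE M21 their exons share 282 bases on opposite strands, so the limit given below for overlapping exons holds for this pair. Nbr1, beside Brca1, had at most 2 reads in a library over its rows and was not tested.

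**Figure D4:**
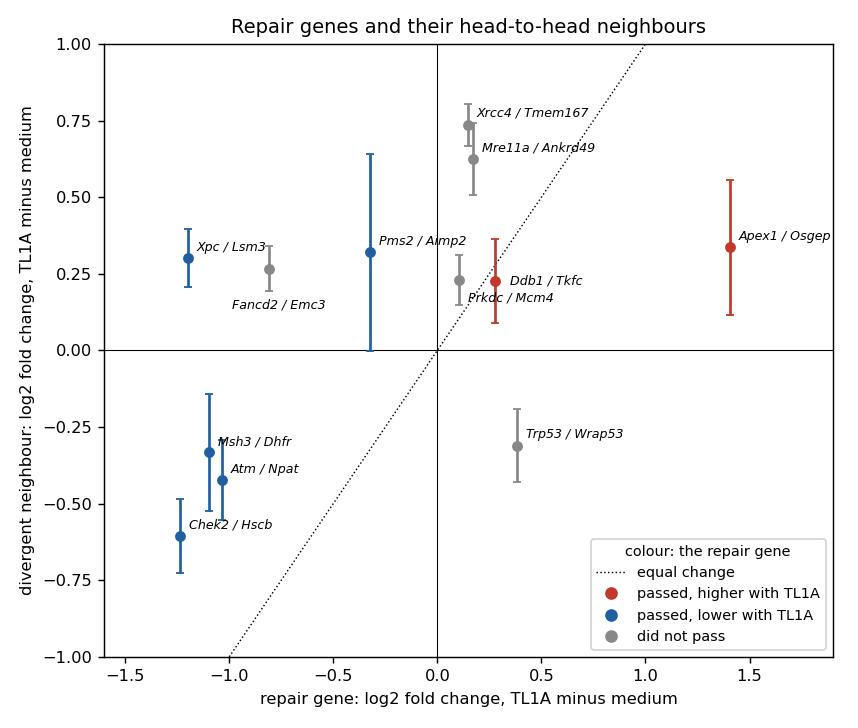
Log2 fold change (TL1A minus medium) of 12 repair genes (horizontal axis) and of the neighbour that starts within 1000 bases on the opposite strand (vertical axis, standard error as bars); colours give the call of the repair gene and the dotted line marks equal change. Msh3, Atm and Chek2 lie to the lower left with their neighbours nearer 0, whereas Xpc lies at -1.20 with Lsm3 at 0.30.

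Exons of 19 members overlap those of another gene in the annotation, 8 of them members that passed. Where the genes lie on opposite strands, reads cannot be told apart if strand was not used in counting, and would then be left out as ambiguous. The level per kilobase of such members, Apex1 among them, would then be set too low. Pms2 shares 363 bases with Gm42421 and 58 with Rsph10b on the same strand, where strand cannot separate reads. Neither of these partners was matched to a gene of the count table. Apex1 shares 877 bases with Pip4p1 on the opposite strand, and its transcript has 1239 bases. Pip4p1 had 146 and 162 reads in medium against 107 and 121 with TL1A and did not pass (log2 change -0.22, SE 0.19). Ddb2 shares 621 bases with Acp2, which had 1068 and 1205 reads in medium against 995 and 1065 with TL1A (log2 change 0.07, SE 0.10).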

How the data were processed

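RNA-seq was done on 4 libraries, 2 of ILC3s in medium and 2 with TL1A. Per the labels' protocols, the SMARTer Ultra Low Input kit gave the cDNA; per the submitters' processing notes, CASAVA, STAR and HTSeq were used with build mm9 (the sources used here give no versions or strand setting). The values that the authors deposited are raw counts of reads for each RefSeq transcript. Of 33535 rows, 33150 matched a symbol in a RefSeq table (GRCm38.p6, used for names); rows were summed to 24343 genes. The 5 summary rows, 69.9% to 71.3% of each column, were left out; ambiguous reads made up 33.7% to 34% of the sum of assigned and ambiguous reads. Genes were tested with edgeR 4.0.16 in R 4.3.3 (filterByExpr minimum count 10, TMM, glmQLFTest, group as the only term, two-sided); the standard error is the size of the log2 fold change divided by the square root of F. DESeq2 1.42.0 and limma-voom (limma 3.58.1) were alternatives. With 2 libraries a group, the smallest p of an exact permutation test is 0.333. The members and gene lists were chosen with earlier results of these data known. All 43 members were accounted for, those passing with at least 100 reads in full; up to 2 passing genes per direction were named from each other list, plus 6 fixed p53 and cycle genes. Neil1, Mpg, Bard1, Atrip, Pms1 and Exo1, the divergent or overlapping neighbours and the other cell markers were named besides, after their values were seen where the rule did not name them. Neighbours, overlaps and transcript lengths came from GENCODE M21. Some marker genes are not reported here.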

Additional observations from a re-analysis of the deposited data

How the results depend on the processing

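With all libraries kept (RLE and upper quartile factors, no low-count filter, DESeq2, limma-voom, the replicate block, single-row genes, the most abundant row per gene), 9 to 14 members were lower and 3 or 4 higher, all within 1.5 times of the 12 and 4 reported. Leaving out each library in turn gave 9 to 11 members lower, 3 to 5 higher, 1597 to 1822 genes lower and 1596 to 1956 genes higher. Scaling by library totals without factors, added after the data were seen, gave 19 members lower, 3475 genes lower and 1310 genes higher. The signs of 6 members that had not passed turned with it (Ercc1 -0.028, Ercc3 -0.084, Prkdc -0.15, Xrcc4 -0.11, Mre11a -0.087 and Mdc1 -0.17). The TMM factors were 1.09 in both medium libraries and 0.91 and 0.92 with TL1A. Leaving them out lowers each log2 change by nearly the same amount. Why the factors differed between the groups was not tested. Log2 changes that passed under both scalings moved to -0.58 for Pms2, -0.59 for Xrcc1, -0.53 for Parp2 and 0.48 for Atr. With single libraries left out, Prkdc ranged from -0.0105 to 0.26, Mre11a from -0.00121 to 0.34 and Xrcc2 from -0.41 to 0.084; the sign of Prkdc turned without medium replicate 2, that of Mre11a without TL1A replicate 1 and that of Xrcc2 without TL1A replicate 2. The titles share replicate numbers without saying what they mark, so the numbers were not taken as pairs. The differences between replicates correlated at -0.14 across genes between the groups. With 1 difference per group, this value cannot show whether libraries of the same number shared a mouse or culture. With the number as a replicate block 9 members were lower and 3 higher, all 12 of them among the 16 calls reported, and 1736 genes were higher and 1806 lower. With crossed pairs, added after the data were seen, 14 members were lower and 4 higher. Tested members had 83 reads or more in all, and Trp53bp1, the member with 83, had an SE of 0.43.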
